A study of Mus musculus with 6 samples.

Results

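PU.1 binding was described on a 35-Mb segment of mouse chromosome 3, from 85 to 120 Mb in build mm9. PU.1, encoded by Spi1, is an ETS-family transcription factor that myeloid and B-lymphoid cells need. It binds DNA at purine-rich sites around a GGAA core, and in macrophages and their progenitors it is known for binding both promoters and distal enhancers, where it helps other factors gain access to chromatin. Clusters of PU.1 sites around active myeloid genes are common, and the sites occupied are known to change with the amount of PU.1 in the cell.

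The members were all peaks of the 6 deposited lists whose midpoint fell between 85 and 120 Mb of chromosome 3. There were 5834 of them among 316138 peaks in all, and the rest of chromosome 3 held 10108. The segment was chosen by 2 measured values of these libraries, the density of new peaks after induction and the higher rank of shared sites after induction. Its excess of new peaks and its rank differences between the conditions are therefore given below as descriptions, with no test. A test over libraries would not have helped, since the smallest two-sided p of an exact permutation test of 2 libraries against 2 is 0.333.

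The cells were iBN cells, a mouse line labelled as granulocyte-macrophage progenitor. Every sample carried the PU.1-inducible system and was grown in GM-CSF, the cytokine that supports granulocyte and macrophage precursors. Doxycycline was given to the induced cells at 1000 ng per ml over 72 hours and was not given to the uninduced cells. Each condition had 2 libraries precipitated with a polyclonal antibody against mouse PU.1, and the authors also deposited 1 merged list per condition. Separate cultures for the replicates are not stated, so their spread may be technical. Each list gives a position and 1 score per peak, which is the authors' own and has a minimum of 50. The depth of the libraries is unknown, and a site without a peak is one that was not called, not one shown to be free of PU.1. A list pools many cells, so binding in more cells and stronger binding per cell cannot be told apart. Input libraries of both conditions were not analysed here, and whether the number of DNA copies of the segment differed between the conditions was not tested.

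Peaks of the segment numbered 1425 in induced replicate 1, 1216 in induced replicate 2, 499 in uninduced replicate 1 and 590 in uninduced replicate 2. The induced mean was 1320.5 ± 148 (SD, n = 2) and the uninduced mean 544.5 ± 64.3 (n = 2), a ratio of 2.43. On the rest of chromosome 3 the same ratio was 1.43, with 1869.5 ± 264 against 1307 ± 134 peaks. Chromosome 19 held 2564 and 2173 peaks in induced replicates 1 and 2, and 965 and 1238 in uninduced replicates 1 and 2. The whole lists held 68076, 57336, 31960 and 42951 peaks in the same order, so higher counts after induction were not particular to the segment. Both induced libraries lay above both uninduced libraries in each area.

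As a share of a library's own chromosome 3 peaks, the segment held 40.9% and 41.9% in the induced libraries. The shares were 29.2% and 29.6% in the uninduced libraries. The gap of 12.0 percentage points was far wider than the spread within either condition. Before induction the segment was already the denser part of the chromosome. Uninduced replicate 1 had 14.3 peaks per Mb inside against 9.73 outside, and uninduced replicate 2 had 16.9 against 11.3. In the induced libraries these densities were 40.7 against 16.5 and 34.7 against 13.5 peaks per Mb. Density in the segment was thus 1.47 and 1.50 times that of the rest in the uninduced libraries and 2.47 and 2.57 times in the induced ones.

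**Figure D1:**
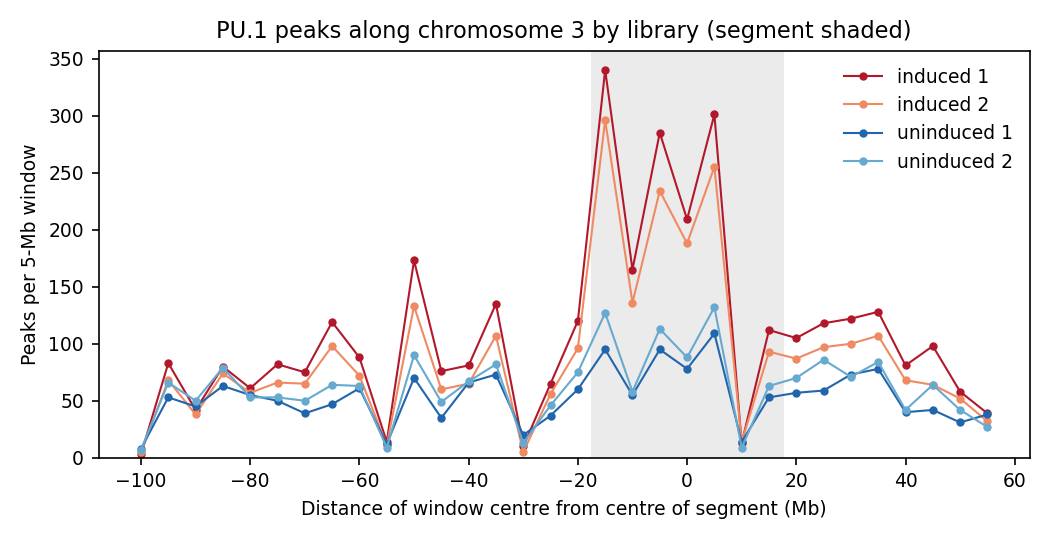
Number of PU.1 peaks in 5-Mb windows of chromosome 3 (y axis) against the distance of each window from the centre of the segment in Mb (x axis), 1 line per library, with the segment shaded. The first shaded window reaches 340 and 296 peaks in the induced libraries and 95 and 127 in the uninduced ones, and all 4 lines fall to between 9 and 14 in the shaded window from 110 to 115 Mb.

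Peaks covered 2060 and 1627 kb of the segment in induced replicates 1 and 2, and 568 and 619 kb in uninduced replicates 1 and 2. The mean covered length was 3.11 times as large in the induced libraries, against 1.67 times on the rest of the chromosome. On chromosome 19 peaks covered 3414 and 2715 kb in the induced libraries and 1056 and 1305 kb in the uninduced ones. In the genome they covered 79458 and 62573 kb against 31672 and 41498 kb. Individual peaks differed much less. Median widths in the segment were 1114, 1067, 1044 and 958.5 bp in induced replicates 1 and 2 and uninduced replicates 1 and 2. The corresponding widths on the rest of chromosome 3 were 971.5, 936, 894 and 847 bp. Peaks were therefore 1.13 to 1.17 times as wide inside the segment as outside it in every library of both conditions, those without doxycycline included. Chromosome 19 had median widths close to the segment's, at 1077.5, 1047, 1019 and 966 bp in the same order. The genome lay between the segment and the rest, with 1002.5, 965, 943 and 895 bp. Median scores inside the segment were 1.15 and 1.13 times those outside in the induced libraries and 1.21 and 1.07 times in the uninduced libraries. The ratio of median scores did not separate the conditions, whereas the ratio of peak numbers did.

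To see which sites were new, peaks that overlapped between the 4 libraries were joined into regions. Regions are called gained where the 2 induced lists, and no uninduced list, had a peak, and lost in the reverse case. Those present in every list are called shared, and all other regions mixed. The segment held 1596 regions, of which 568 were gained, 313 shared, 31 lost and 684 mixed. Gained regions made up 35.6% of the segment (95% Wilson interval 33.3 to 38.0%), against 18.8% (17.4 to 20.3%) of the rest of chromosome 3 and 22.2% of all regions in the genome. Lost regions made up 1.94% (1.37 to 2.74%), against 6.06% (5.24 to 7.02%) of the rest and 3.80% genome-wide. Chromosome 19 had a like makeup, with 30.2% gained and 1.85% lost. Shared regions made up 19.6% inside, 21.8% outside and 23.4% genome-wide. These intervals cover counting error only, and neighbouring regions are not independent. With each library limited to as many peaks as the shortest list holds, the segment had 235 gained regions, or 25.4% of its regions against 9.34% outside. Without induced replicate 2 it had 864 gained regions, or 56.1% of its regions against 35.5% outside, so the gained share was higher in both areas. Lost regions of the segment numbered 60 without uninduced replicate 1 and 78 without uninduced replicate 2. A class that rests on fewer lists takes in more regions by construction.

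Counted the other way, the segment held 52.2% of the gained regions of chromosome 3, 34.2% of the shared and 15.6% of the lost ones. There were 1.81 gained regions per shared region in the segment and 0.862 on the rest of the chromosome. With lists of equal length the ratios were 0.955 and 0.379, so that shared regions then outnumbered gained ones in the segment too. Shared regions were themselves dense, at 8.94 per Mb inside and 4.84 per Mb outside. Gained regions stood at 16.2 per Mb inside and 4.17 per Mb outside. Lost regions were sparser inside, at 0.886 per Mb against 1.35. Chromosome 19 had 1.32 gained regions per shared region.

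**Figure D2:**
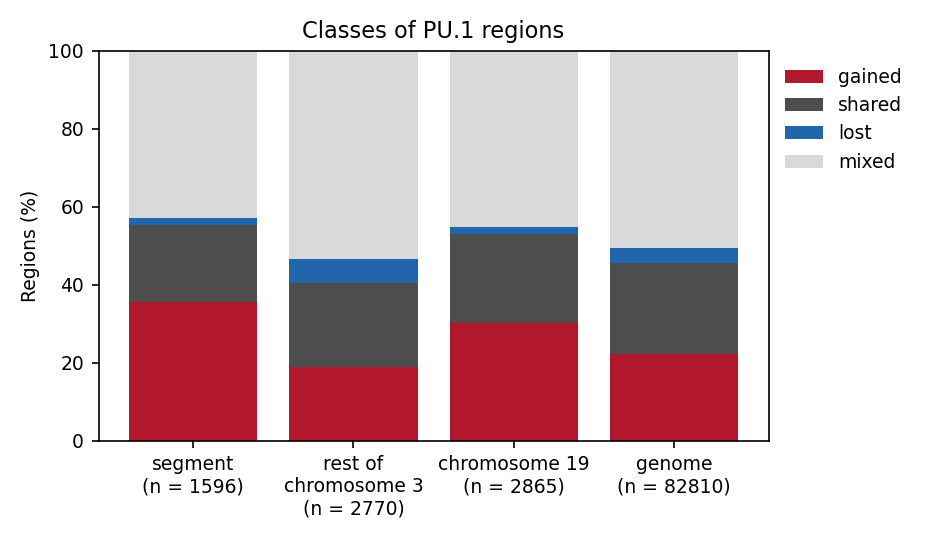
Percent of PU.1 regions (y axis) in each class, stacked, for the segment, the rest of chromosome 3, chromosome 19 and the genome; n is the number of regions. Gained regions fill 35.6% of the segment's bar, 18.8% of that for the rest of chromosome 3 and 22.2% of that for the genome.

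The largest mixed group of the segment was 283 regions found only in induced replicate 1, followed by 158 found in both induced libraries and uninduced replicate 2. Another 70 were found only in induced replicate 2, and 50 in both induced libraries and uninduced replicate 1. Regions seen only in an uninduced library were few, with 47 (2.94%) in replicate 1 and 29 (1.82%) in replicate 2. On the rest of chromosome 3 they numbered 255 (9.21%) and 150 (5.42%). Their shares were 5.46% and 4.14% in the genome, and 2.83% and 1.68% on chromosome 19, as low as in the segment.

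Sites bound before induction were mostly found again after it. Of the 358 regions of the segment with a peak in both uninduced libraries, 87.4% (83.6 to 90.5%) had a peak in both induced libraries and 8.66% (6.17 to 12.0%) in neither. On the rest of chromosome 3 these shares were 71.3% (68.1 to 74.2%) and 19.9% (17.3 to 22.7%), and on chromosome 19 they were 88.9% and 7.20%, level with the segment. The genome stood at 80.3% and 13.0%. Of the 1089 regions of the segment found in both induced libraries, 52.2% (49.2 to 55.1%) were in neither uninduced library, against 34.8% (32.5 to 37.3%) on the rest. Chromosome 19 stood between them at 44.2%, and the genome at 35.9%. The induced lists also covered more of the segment than of the rest, and the part of this in the overlap was not tested.

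Agreement within a condition does not compare the conditions, but for the induced pair it is not free of the choice of the segment. A gained region needs a peak in both induced lists, and the segment was chosen for its density of new peaks. Of the segment's peaks in induced replicate 2, 93.4% (91.9 to 94.7%) overlapped induced replicate 1, and 77.5% (75.2 to 79.6%) of those in replicate 1 overlapped replicate 2. For the uninduced pair the shares were 75.4% (71.4 to 78.9%) of replicate 1 and 63.7% (59.8 to 67.5%) of replicate 2. Outside the segment the same 4 shares were 90.9%, 73.2%, 70.5% and 61.6%. All 4 were thus a little higher inside, by 2.10 to 4.81 percentage points, where peaks were also wider and denser. In the genome they were 92.4%, 76.3%, 77.5% and 57.9%, and on chromosome 19 93.2%, 77.4%, 78.8% and 61.4%, so the segment did not stand above both in every pair. Uninduced replicate 1 overlapped induced replicate 1 with 83.4% of its segment peaks, more than it overlapped its own replicate. Outside the segment the order was the reverse, with 62.9% against 70.5%, but chromosome 19 had the segment's order, with 84.2% against 78.8%.

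The strongest gained regions are named by the lower of their 2 induced scores. The first lay at chromosome 3, 96393690 to 96394953, in a compact peak 1264 bp wide in induced replicate 1 and 1121 bp in replicate 2. The second and the third, at 89776684 to 89779258 and 88263148 to 88266283, were broader, with 2527 and 2565 bp and with 3136 and 2785 bp. Their scores exceeded 1000 in both induced libraries, and neither uninduced list had a peak at any of them.

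Next came 108468552 to 108469879, which scored 1415.66 in induced replicate 1 and 981.74 in replicate 2. The region at 94879406 to 94880886 scored 961.48 and 878.35, nearly level between the replicates. The region at 107065410 to 107066562 scored 1056.12 and 866.49. The next, at 99342694 to 99345056, scored 1107.01 and 858.43 and was 2363 bp wide. The last of the 8, at 89277291 to 89279326, differed most between replicates, with scores of 1670.53 and 815.81. All 8 were also in the authors' merged induced list. The merged uninduced list had a peak at this last region only, with a score of 51.48, close to the minimum. They were not at a single place: 3 lay between 88 and 90 Mb, and the others were spread from 94 to 109 Mb.

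Most gained regions were far weaker than these. The lower induced score ranged from 50.03 to 1319.05 over the 568, with a median of 97.9, against a median of 87.8 on the rest of chromosome 3. Both induced scores reached 100 in 276 of them (48.6%, interval 44.5 to 52.7%), against 42.3% (38.1 to 46.6%) on the rest and 42.7% in the genome. On chromosome 19 this share was 48.8% and the median lower score 96.8, level with the segment. The lower score was over 500 in 29 of the 568 gained regions of the segment and in 6 of the 520 outside it. On chromosome 19 it was over 500 in 24 of 866 gained regions, and in the genome in 251 of 18414. In the segment, 14 of the gained regions were also hit by the merged uninduced list.

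**Figure D3:**
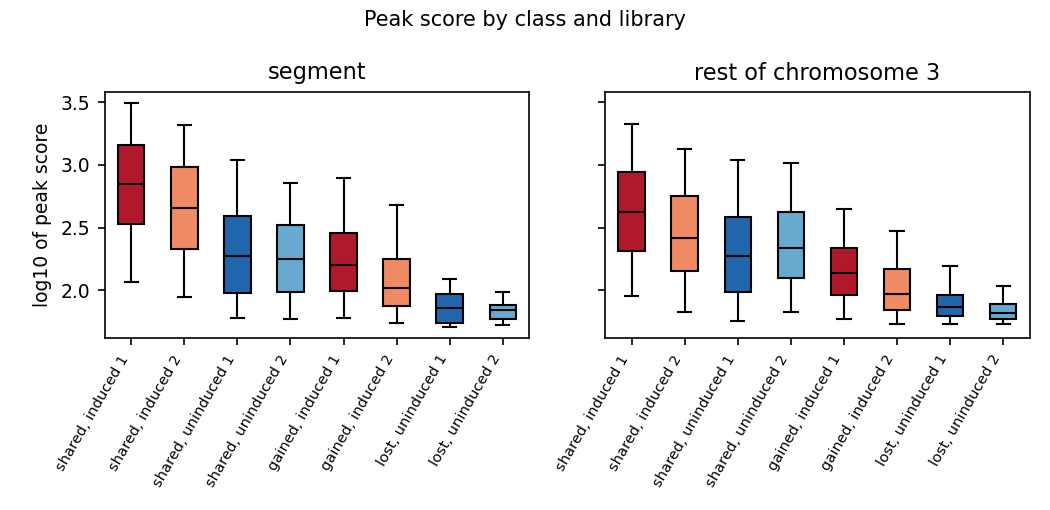
Peak scores on a log10 axis (y) by class and library (x) for the segment (left) and the rest of chromosome 3 (right); boxes are quartiles with the median and whiskers run from the 5th to the 95th percentile of regions. Shared regions have medians of 702 and 453 in the induced libraries inside the segment and 421 and 260.1 outside, while their uninduced medians are 187 and 177 inside and 187 and 216 outside.

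Gained regions were also counted in windows of 100 kb. Such counts rise with the density of new peaks, by which the segment was chosen. Clustering beyond that density was not tested. Of the 350 windows of 100 kb in the segment, 189 (54.0%) held a gained region, against 25.7% of the 1246 windows of the rest of chromosome 3. Windows with a shared region were more frequent inside too, at 42% against 24.2%. Windows with 5 or more gained regions numbered 36 (10.3%) inside and 6 (0.482%) outside, and those 36 held 245 of the 568 gained regions. The richest, 89700001 to 89800000, had 11 gained and 2 shared regions, with 15 peaks in each induced library and 3 and 5 in the uninduced ones. Windows at 88200001 to 88300000, 89100001 to 89200000 and 96500001 to 96600000 had 10 gained regions each. The last of these held 13 and 12 peaks in the induced libraries and 1 in each uninduced library. In that neighbourhood also lay the longest unbroken run, 8 gained regions in succession over 44.9 kb from 96498809 to 96543751. Runs of 4 or more gained regions occurred 16 times in the segment and 6 times on the rest of the chromosome, where the gained share of regions was lower.

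Gained regions lay near shared ones about as often as in the genome. In the segment 185 gained regions, or 32.6% (28.8 to 36.5%), lay within 10 kb of a shared region, against 26.5% (22.9 to 30.5%) on the rest of chromosome 3 and 33.1% in the genome. The median distance was 20.0 kb inside and 26.9 kb outside, with shared regions 1.85 times as dense inside.

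The 31 lost regions were weak, and so were lost regions elsewhere. The median of the lower uninduced score was 58.8 in the segment, 62.0 on the rest of chromosome 3, 59.1 on chromosome 19 and 61.5 in the genome. The strongest of the 31, at 109087218 to 109088193, scored 94.73 and 86.3 in uninduced replicates 1 and 2. It was followed by 92352828 to 92353671 (72.22 and 97.73) and 94531581 to 94532469 (80.75 and 70.59). The remaining pair of the 5 named lay at 94076276 to 94076816 (83.13 and 69.85) and 116138715 to 116139678 (70.84 and 69.49). None of the 31 reached 100 in both uninduced libraries, which allows a share of up to 9.68% (3 counts of the total, a limit for counting error only and not a Wilson bound), and 5 of the 168 lost regions outside did. In the genome 181 of 3150 lost regions (5.75%) reached 100 in both uninduced libraries, and 4 of 53 did on chromosome 19. In the authors' merged induced list, 3 of the 31 had a peak.

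Among shared regions, the strongest carried the authors' score of 3100 in the induced libraries, a value repeated in many high-scoring peaks, so their order is uncertain. At 95475314 to 95481774 the induced scores were 3100 and 3178.98 and the uninduced scores 363.11 and 473.16. At 89711544 to 89718995 they were 3100 in both induced libraries, and 226.85 and 753.62 in the uninduced ones. The region at 89882266 to 89888628 was strong throughout, with uninduced scores of 2365.27 and 832.36, and so was 95453320 to 95459182, with 1776.95 and 1216.45. The last of the 6 were 90068111 to 90072440, with uninduced scores of 438.06 and 780.34, and 90472169 to 90475287, with 1220.86 and 1177.76. All 6 lay in 2 stretches, near 90 Mb and near 95 Mb. Scores of 3100 or more were given to 19 of 1425 segment peaks in induced replicate 1, 5 of 1216 in induced replicate 2 and none in either uninduced library. In induced replicates 1 and 2 chromosome 19 had 33 of 2564 and 6 of 2173, and the genome 417 of 68076 and 110 of 57336. Such scores were rare in the uninduced lists of the whole genome too, with 69 of 31960 and 24 of 42951 peaks.

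Because scores of different lists are not on a known common scale, shared regions were also ranked within each library over all 19391 shared regions of the genome. Those of the segment had a median percentile of 62.5 in both induced libraries, 53.4 in uninduced replicate 1 and 37.3 in uninduced replicate 2. On the rest of chromosome 3 the medians were 44.1, 42.8, 53.3 and 45.2 in the same order. Chromosome 19 was nearer the segment, with 62.8, 62.0, 52.3 and 45.7. Between the uninduced libraries the segment's ranks differed by a median of 8.26 points, and by 3.62 points on the rest of the chromosome, whereas the induced libraries differed by -0.40 and -0.10 points. Taking each induced library against each uninduced one, 4 comparisons in all, gave median differences of 11.3, 15.0, 10.7 and 14.3 points in the segment. The same comparisons gave -4.14, -1.68, -3.81 and -1.12 points on the rest. The difference between the uninduced libraries was thus smaller than, but of the same order as, that between the conditions.

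**Figure D4:**
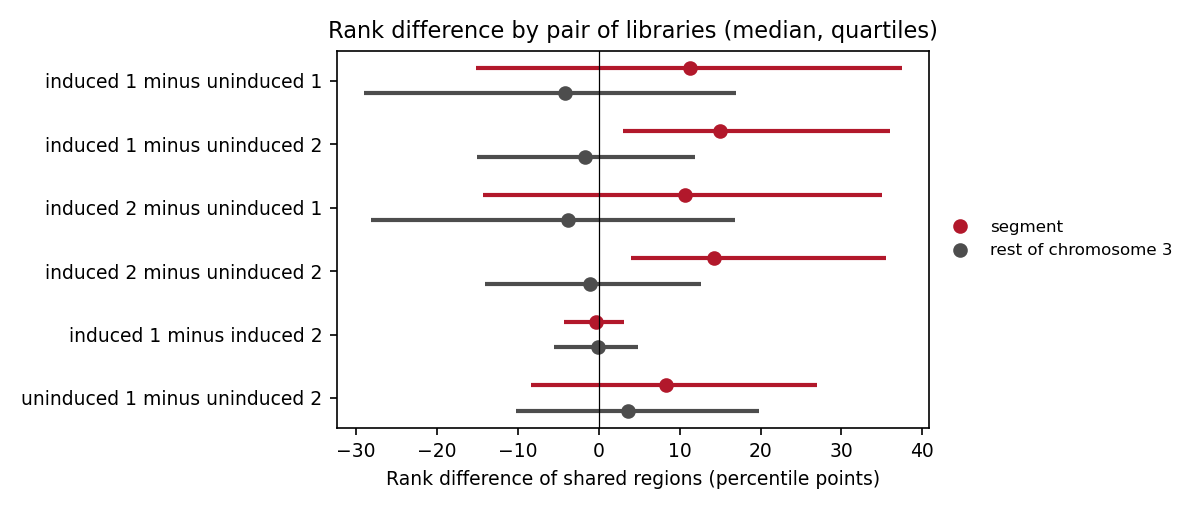
Rank difference of shared regions in percentile points (x axis) for each pair of libraries (y axis), in the segment and on the rest of chromosome 3; points are medians and lines run between the quartiles. All 4 pairs between conditions have medians between 10.7 and 15.0 points in the segment, and the pair of uninduced libraries has a median of 8.26.

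With the rank shift taken as the mean induced minus the mean uninduced percentile, 215 of the 313 shared regions (68.7%) had a shift above 0, against 50.4% of shared regions in the genome, 45.3% on the rest of chromosome 3 and 65.7% on chromosome 19. The median shift was 15.3 points, or 9.93 points without uninduced replicate 2, and -2.51 points on the rest of the chromosome. The shift had quartiles of -5.98 and 32.8 points and ran from -58.2 to 77.1. Both induced percentiles lay above both uninduced ones in 164 regions (52.4%), against 30.6% in the genome and 48.5% on chromosome 19. Both lay below in 40 regions (12.8%), against 30.8% in the genome and 18.7% on chromosome 19. Beside the 215 with a shift above 0, 98 shared regions of the segment had a shift of 0 or less, these 40 among them.

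The 5 largest shifts belong to regions with low uninduced and high induced scores, as this choice requires. At 88294546 to 88300106 the induced scores were 2504.11 and 1669.86 and the uninduced scores 77.35 and 113.37, a shift of 77.1 points. At 108184250 to 108187279 they were 1281.37 and 837.07 against 68.92 and 75.15. The third, 95464537 to 95470180, with 1676.34 and 924 against 87.58 and 75.23, lies between the strong shared regions named near 95 Mb. The others were 96065373 to 96069230 and 89221016 to 89227793, with shifts of 70.3 and 69.8 points.

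At the other end, 115832780 to 115834443 had induced scores of 99.11 and 95.9 and uninduced scores of 399.64 and 295.94, a shift of -58.2 points. At 103787714 to 103788833 the induced scores were 67.65 and 51.17 and the uninduced ones 580.82 and 120.84, far apart within the uninduced condition. The third, 86121169 to 86122249, scored 201.77 and 150.45 against 628.9 and 300.79. These 3 were likewise chosen by their shift.

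The shift varied with how strong a region was over all 4 libraries. The shared regions of the genome were divided into 4 equal groups by their mean percentile. The 61 segment regions in the weakest group had a median shift of 3.39 points. The next groups had 15.7 (n = 87), 29.3 (n = 80) and 15.7 points (n = 85). A shift above 0 was found in 33 of 61, 53 of 87, 60 of 80 and 69 of 85 regions from the weakest to the strongest group. On the rest of chromosome 3 the medians were -5.85, -9.71, -1.31 and 0.96 points, so the segment lay above the rest in each group. Chromosome 19 had a like profile, with -0.63, 14.1, 18.5 and 6.11 points, and in the genome as well the third group was highest, with 5.48 points.

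Along the segment the pattern was uneven. In 5-Mb windows from 85 Mb onward, gained regions numbered 154, 67, 119, 78, 103, 7 and 40, and shared regions 62, 35, 66, 52, 67, 2 and 29. The median shift of the 6 windows with 10 or more shared regions was 10.4, 24.4, 22.1, 5.08 and 17.0 points from 85 to 110 Mb and 4.50 points from 115 to 120 Mb. The window from 110 to 115 Mb was nearly empty in every library, with 13 and 14 induced and 14 and 9 uninduced peaks. Gained regions outnumbered shared ones in all 7 windows and in 8 of the 25 windows of the rest.

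At a resolution of 1 Mb, 18 windows of the segment had 10 or more shared regions, and 16 of these had a median shift above 0. On the rest of the chromosome 10 of 21 did. Segment windows with fewer shared regions ran from -31.7 points at 118 to 119 Mb (n = 2) to 53.5 points at 113 to 114 Mb (n = 1). From 100 to 101 Mb, 19 of 50 regions were gained and the median of 8 shared regions was -9.94 points. Among the 18 windows, the lowest median, -8.38 points, was that of 86 to 87 Mb, where 6 of 33 regions were gained. The window from 87 to 88 Mb followed, with 13 of 62 regions gained and a shift above 0 in 9 of its 15 shared regions. Next came 88 to 90 Mb, where 119 of 233 regions were gained and the windows had medians of 21.5 and 18.1 points. The highest of the 18, 34.3 points, was that of 94 to 95 Mb, and 108 to 109 Mb was nearly as high, with 33.7 points. Between them, from 103 to 104 Mb, 9 of 58 regions (15.5%) were gained and the median was -0.43 points. The gained share ran from 15.5 to 55.8% over the 28 windows with 10 or more regions. In 25 of these it was above the 18.8% of the rest of chromosome 3.

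**Figure D5:**
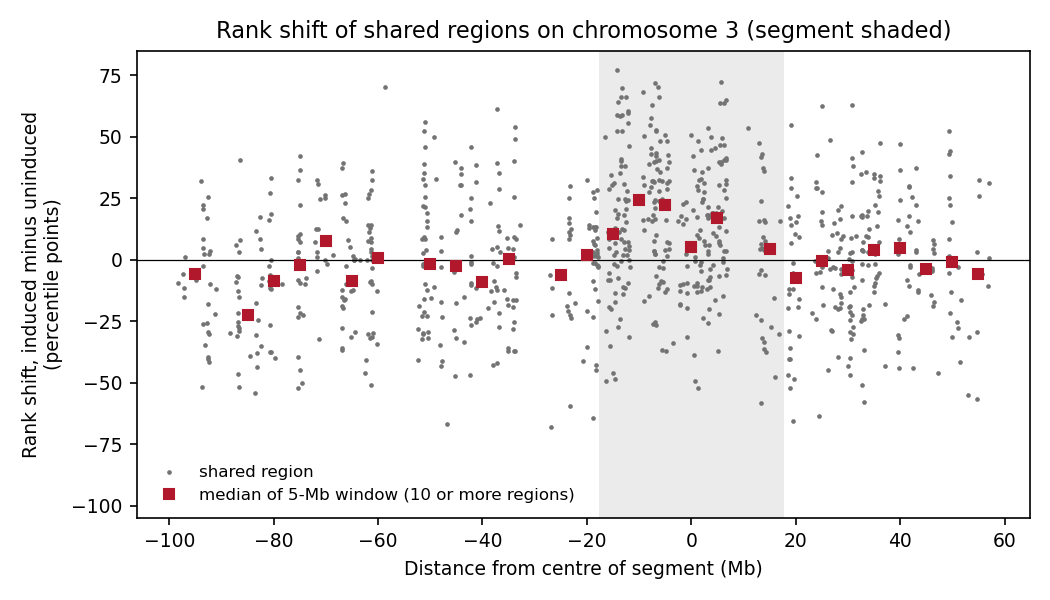
Rank shift of each shared region of chromosome 3 in percentile points, induced minus uninduced (y axis), against its distance from the centre of the segment in Mb (x axis); squares are medians of 5-Mb windows with 10 or more shared regions, and the segment is shaded. Window medians run from 4.50 to 24.4 points in the segment and from -22.7 to 7.55 points outside it, and single regions on both sides of 0 occur throughout.

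The 1-Mb windows on either side of 85 Mb held 58 regions outside and 30 inside, and those at 120 Mb 23 inside and 11 outside. Just outside 85 Mb the nearest region was gained, at 84861703 to 84862514, with induced scores of 89.95 and 111.46. The first region inside was gained too, at 85031130 to 85031912, with 68.82 and 76.66. At the other edge the last region inside, 119811706 to 119812418, was lost, with uninduced scores of 52.2 and 76.12. The first beyond it, 120010356 to 120011080, was found in uninduced replicate 2 only, with a score of 55.13. The 5-Mb window before the segment had 28 gained and 38 shared regions with a median shift of 1.76 points, and the one after it had 26 and 31 with -7.61 points.

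The widest and the third widest region of the segment were neighbours. At 108085122 to 108095028 a region of 9907 bp was shared, but its peaks were 9716 and 9803 bp wide in total after induction and 1788 and 1568 bp wide without it. Its neighbour, 108096742 to 108104232, had 7356 and 6110 bp against 992 and 748 bp. The region at 87941082 to 87949119 was 8038 bp wide, with 8038 and 5962 bp in the induced libraries, 2156 bp in uninduced replicate 2 and no peak in uninduced replicate 1. In these 3 regions the total peak width was larger in each induced library than in any uninduced library. These totals can sum several peaks of a library, so they cannot be set against the median width of single peaks. The 3 regions were also chosen as the widest.

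The authors' merged lists held 1487 induced and 617 uninduced peaks in the segment. Of the merged induced peaks, 66.5% (64.1 to 68.9%) overlapped no merged uninduced peak, against 52.4% (50.2 to 54.4%) on the rest of chromosome 3 and 53.4% in the genome. Of the merged uninduced peaks, 15.4% (12.8 to 18.5%) overlapped no merged induced peak, against 33.6% (31.3 to 35.9%) on the rest and 22.4% in the genome. Chromosome 19 was nearer the segment, with 61.1% in the merged induced list and 13.1% in the merged uninduced list. These lists rest on the same libraries and are no independent support.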

How the data were processed

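PU.1 ChIP-seq peak lists of 4 libraries and 2 merged lists were used. Per the submitters' processing notes, Trim Galore, Bowtie, MACS 1.4.1 and build mm9 were used; for the control, read filters and merging, the steps were not stated in the labels. Each list deposited by the authors has a score per peak, with no stated scale. The score was used to rank, describe and filter peaks within a list. Positions are counted from 1.

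Samples were grouped by title. Peaks overlapping by at least 1 bp were joined into regions, and a region belongs to the segment by its midpoint. Percentiles come from the best score of a library in a shared region. Areas per Mb use the 160 Mb up to the last peak. Intervals are 95% Wilson intervals. The functions were tested on simulated lists. Tools were pandas 2.3.3, SciPy 1.17.1, NumPy 2.4.6 and matplotlib 3.10.9 under Python 3.11.15.

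The segment, the lists and the rules were chosen with earlier results of these data known. Regions named are the 8 gained, 6 shared and 5 lost ones that lead by the lower of their 2 scores (induced for gained and shared), the 5 largest and 3 smallest rank shifts, the 3 widest regions, the 4 windows of 100 kb with most gained regions, the longest run of gained regions and the regions next to each edge. No genome or annotation of mm9 was used here, so no sequence is shown and no gene is assigned to a region. Alternatives were another overlap rule, equal lists of 31960 peaks, scores of 100 or more, leaving out each library, a replicate block, other edges and other ranks. A further alternative, chosen after seeing the data, dropped gained and lost regions that the opposite merged list also held.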

Additional observations from a re-analysis of the deposited data

How the results depend on the processing

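The added share of peaks, the rank shift and the width difference of the segment kept their sign under the alternatives run. The other values listed here are counts, a ratio and a percentage, which cannot change sign. The ratio of gained to shared regions fell below 1 with lists of equal length. With ranks over all peaks, the rank shift of the rest of chromosome 3 turned from negative to positive. The added share of chromosome 3 peaks, 12.0 points, was 10.5 with scores of at least 100, 14.0 with lists of equal length, and 8.15 and 10.9 with edges of 90 to 110 and 80 to 130 Mb; leaving out 1 library gave 11.5 to 12.6. Gained regions (568) fell to 235 with lists of equal length and to 367 with the inner edges, and numbered 618 to 864 without 1 library (864 without induced replicate 2). Leaving out a library raises such counts by construction, since a class then rests on fewer lists. Gained regions then made up 39.9 to 56.1% of the segment's regions and 23.1 to 35.5% of those outside. With the inner edges their share was 34.3% inside and 21.9% outside. Gained regions per shared region (1.81) were 2.29 with an overlap of 50% of both intervals, 2.34 with scores of at least 100, 0.955 with lists of equal length, 1.56 with the outer edges and 1.31 to 2.65 without 1 library. The same ratio outside the segment was 0.379 with lists of equal length and 0.636 to 1.43 without 1 library. Lost regions (31) were 71 with 50% overlap, 5 with scores of at least 100, and 17 and 50 with the inner and outer edges. They numbered 33 to 78 without 1 library, with 60 without uninduced replicate 1 and 78 without uninduced replicate 2. The lost share outside the segment was not worked out under these settings.

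The median rank shift (15.3 points) was 11.9 with 50% overlap, 12.9 with scores of at least 100, 9.08 with the outer edges and 11.8 with ranks over chromosome 3 only. Without 1 library it was 9.93 to 14.6, with the lowest value without uninduced replicate 2. With ranks over all peaks it was 14.7, and the rest of chromosome 3 then stood at 2.46 in place of -2.51. With a replicate block by library number it was 12.8. The share and width cannot move under such a block, since a mean of differences equals the difference of the means. The numbers do not pair the libraries, as deviations of same-numbered libraries correlated at -0.025 over shared regions. Merged induced peaks without an uninduced peak (66.5%) were 73.2% with 50% overlap and 63.2% with the outer edges. Median peaks were 89.2 bp wider in the induced libraries, 155 bp with scores of at least 100, 337 bp with lists of equal length and 46.5 to 132 bp without 1 library. Read depth is unknown, so weak sites cannot be called absent.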

Other observations

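The merged lists held some peaks of the segment that overlapped no peak of either replicate of their condition. There were 89 such peaks (5.99%) in the merged induced list, with a median score of 57.7 and a highest score of 119.39. The merged uninduced list had 30 (4.86%), with a median of 55.8 and a highest score of 92.87. On the rest of chromosome 3 they numbered 150 (6.91%) and 89 (5.62%), so the segment held no larger share of them in either list.

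Of a list of 30 genes with myeloid or neighbouring roles, 29 matched the RefSeq gene table of GRCm38.p6 by symbol, all of them on chromosome 3. In that assembly the order along the chromosome includes Il6ra, a subunit of the interleukin-6 receptor, S100a8 and S100a9, which neighbour each other in the list and encode the subunits of calprotectin, the lysosomal cathepsin genes Ctsk and Ctss, and Mcl1, which encodes a survival factor. Fcgr1, an Fc receptor gene, Cd53, a leukocyte tetraspanin gene, Csf1, which encodes macrophage colony-stimulating factor, and Vcam1, an adhesion gene, follow in this order. The table belongs to another build than the peaks, so no peak was assigned to any of these genes.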
